A study of Mus musculus with 6 samples.

Results

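The cadherin-catenin adhesion genes described here are *Cdh1*, *Cdh17*, *Epcam*, *Ctnnb1*, *Jup*, *Ctnna1*, *Ctnnd1* and *Vcl*, 8 of the 20409 features counted in mouse duodenal villus epithelium. They were chosen by gene name, at a time when earlier results of these data were known, and the rule itself used no measured value. All 8 had a row in the count table, and all 8 passed edgeR's filter on low counts, as did 13346 features in total. Bulk RNA-seq libraries of polyadenylated RNA were made from the villi of 3 wild-type and 3 double mutant mice, 1 mouse per library, with 2 females and 1 male in each group. The double mutant mice carried *Smad4* fl/fl, *Ctnnb* exon3 fl/wt and Villin-CreERT2 on a background enriched for C57BL6. They received 4 daily injections of tamoxifen at 0.05 g/kg and were collected 7 days after induction. The mice labelled Wildtype were littermates that received no injection, and whether they carried a floxed allele or the transgene is not given in the sources used here, so the effects of tamoxifen and of the alleles cannot be told apart. The Villin promoter drives the recombinase throughout the intestinal epithelium, and the labels do not state in what share of the villus cells each allele was recombined.

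At the adherens junction, the extracellular part of a classical cadherin such as E-cadherin binds the same protein on the next cell. Its cytoplasmic tail holds p120-catenin near the membrane and, farther along, β-catenin or plakoglobin, and these recruit α-catenin, which binds actin and, when stretched, vinculin. β-catenin has a further role outside the junction as the coactivator of Wnt target genes. Its free pool is kept low by phosphorylation of a motif encoded in exon 3 of *Ctnnb1*, which marks the protein for ubiquitination. In the gut, LI-cadherin (*Cdh17*) and EpCAM add adhesion along the lateral membrane without binding β-catenin.

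Exon 3 of *Ctnnb1* is shown because the gain-of-function allele deletes it and because it carries the degradation motif. It lies at chr9:120859640-120859867 on the plus strand of mm9 and is exon 3 of 15 in the annotated transcript. All of its 228 bases are coding. The capitals mark the 6 codons of the motif.
*Ctnnb1* exon 3: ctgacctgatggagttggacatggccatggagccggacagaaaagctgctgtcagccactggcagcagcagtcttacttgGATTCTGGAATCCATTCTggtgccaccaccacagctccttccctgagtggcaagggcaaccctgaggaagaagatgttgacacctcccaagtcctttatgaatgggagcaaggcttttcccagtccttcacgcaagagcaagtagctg

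Without exon 3, the 13 coding bases of exon 2 (chr9:120859339-120859351) are followed by exon 4, whose first 30 bases are at chr9:120860012-120860041.
Coding part of exon 2: atggctactcaag
Start of exon 4: atattgacgggcagtatgcaatgactaggg
The 228 bases are 76 codons, so the reading frame is kept and the predicted protein shortens from 781 to 705 residues, with no copy of the motif left. The counts are totals per gene and do not separate transcripts with exon 3 from those without it.

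*Jup* encodes plakoglobin, the closest relative of β-catenin among the 8, and carries the same motif in exon 2 of 14, on the minus strand at chr11:100247587-100247640. The 54 coding bases around the motif are shown for both genes to compare them, with the motif in capitals, and the *Ctnnb1* stretch lies at chr9:120859708-120859761.
*Ctnnb1*: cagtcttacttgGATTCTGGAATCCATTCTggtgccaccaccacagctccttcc
*Jup*: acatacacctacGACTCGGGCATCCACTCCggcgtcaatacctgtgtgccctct
The stretches had the same base at 29 of 54 positions (53.7%). Within the motif, 13 of 18 bases were the same, and all 6 codons encoded the same residue in both genes. Over the whole stretch, 10 of 18 codons did so. The *Jup* motif is not touched by the engineered allele.

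Between 19678507 and 26337318 reads were counted per library. The lowest level that this depth can show, 3 counts, corresponds to 0.125 to 0.163 CPM (counts relative to the library total after scaling with edgeR's TMM factors), a limit that covers counting error only. *Smad4*, the deleted gene, had 119.8, 180.1 and 144.5 CPM in the wild-type mice and 26.05, 36.83 and 32.13 CPM in the double mutant mice, so each library fits its label. Enterocyte markers supplied 4.98 to 5.6% of the counts in wild-type and 3.23 to 3.51% in double mutant villi, and of the 10 genes on that list 7 were lower and 1 was higher. Crypt stem and progenitor markers supplied 0.00387 to 0.0140% and 0.0245 to 0.0334%, with 5 of 8 higher and none lower. Tuft cell markers (0.00770 to 0.0106% against 0.00127 to 0.00145%, 4 of 4 tested genes lower) and enteroendocrine markers (0.0204 to 0.0298% against 0.0102 to 0.0112%, 5 of 6 lower) also separated the groups. The fibroblast and smooth muscle list took at most 0.000813% and the endothelial list at most 0.000356% of the counts of any library. Both were higher in the double mutant mice without overlap, but on each list 0 of 2 tested genes were called. For the fibroblast and smooth muscle list the groups were separated only by the gap between 0.000359 and 0.000389%. *Col1a2*, *Col3a1*, *Pdgfra* and *Kdr* had 3 counts or fewer in every library, and the endothelial markers *Cdh5*, *Emcn* and *Cldn5* had no row. Lymphocyte markers overlapped between the groups (0.00782 to 0.0158% against 0.00796 to 0.0123%, 2 of 7 lower), as did Paneth markers (0.000577 to 0.0928% against 0.0154 to 0.0249%, 0 of 5 passing the test). Wild-type mouse 1, the only wild-type male, stood apart from the other wild-type libraries. It had 0.0111% of its counts on goblet markers, against 1.07 and 1.04% in wild-type mice 2 and 3. The double mutant mice had 0.465 to 0.526% on this list (1 of 7 genes higher). Wild-type mouse 1 also had the lowest wild-type share of crypt stem and progenitor (0.00387%), Paneth (0.000577%) and lymphocyte markers (0.00782%). Each shift without overlap had an exact two-sided permutation p of 0.1, the smallest that 3 mice against 3 allow (0.15 after adjustment over the 9 lists). The shares are of unscaled library totals, whereas single genes were called in edgeR after TMM scaling. Of all genes tested, 19.7% were called higher and 17% lower, and 52.4% had no overlap between the groups. The part of these marker lists in the results that follow was not tested.

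*Ctnna1*, *Jup* and *Cdh17* were lower in the double mutant villi, at 71.4 to 75.8% of their wild-type level, and *Cdh1*, *Epcam*, *Ctnnb1*, *Ctnnd1* and *Vcl* did not pass the test. Thus 3 of the 8 genes were called lower and 0 higher at an adjusted p of 0.05 in edgeR's quasi-likelihood test, adjusted over all 13346 genes. With scaling by library size alone, 0 of the 8 were called, and with replicate number as a block 1 was, *Ctnna1*. Of all genes tested, 36.8% were called, 19.7% higher and 17% lower, so the share of adhesion genes called lies near that of all genes. None of the 8 changed by 1 or more on the log2 scale, whereas 17.1% of all genes were called with a change of at least 1 and 5.3% with a change of at least 2. For the same 3 genes no mouse of a group lay within the range of the other group, against 52.4% of all genes without overlap and 24.2% without overlap and lower. The median log2 fold change of the 8 genes was -0.11, beside 0.02 for all genes tested. In bulk RNA, fewer cells that express a gene and less of its RNA per cell cannot be told apart.

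**Figure D1:**
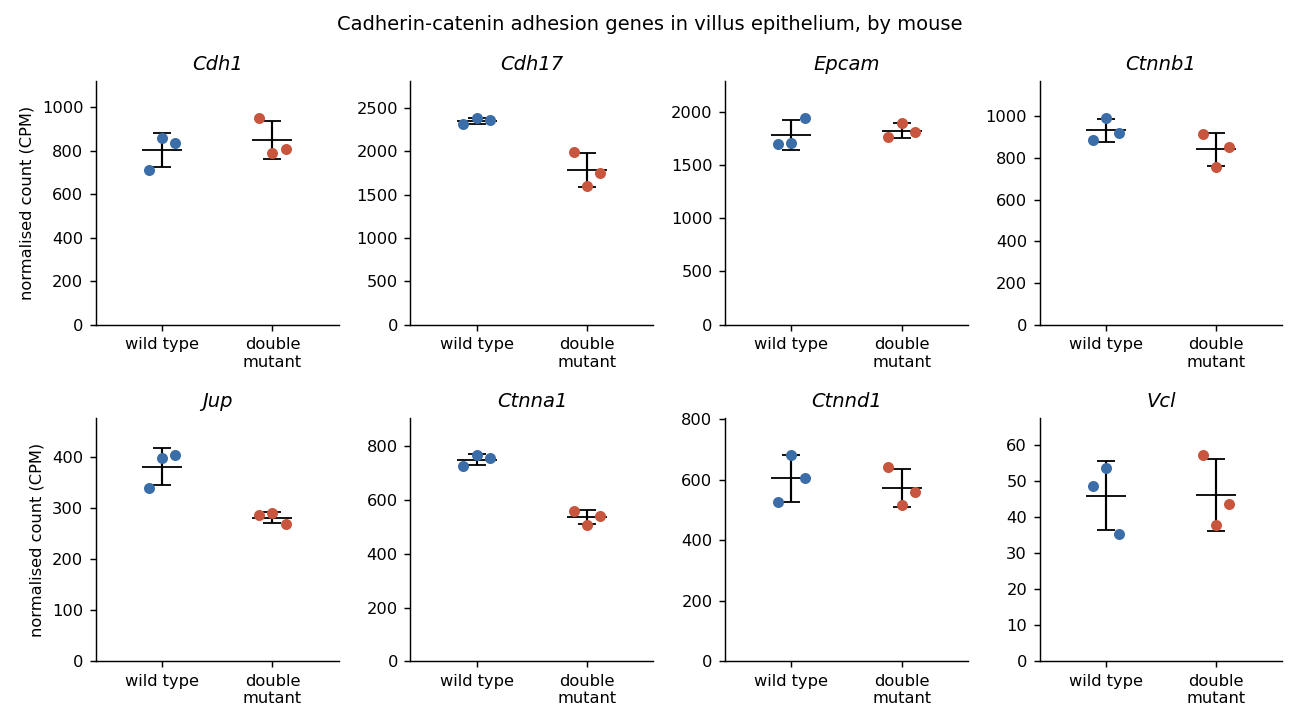
Normalised counts (CPM with TMM scaling, vertical axis from 0) of the 8 adhesion genes in each of 3 wild-type (blue) and 3 double mutant (red) mice; points are mice, lines and bars the mean and SD. The groups do not overlap for *Cdh17*, *Jup* and *Ctnna1*, whose double mutant values all lie below the lowest wild-type value, and they overlap for the other 5 genes.

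*Cdh1* (ENSMUSG00000000303, chr8:109127251-109194146, plus strand) encodes E-cadherin, the classical cadherin of epithelia and the anchor of the catenins. It was counted at 712.5, 857.2 and 835.3 CPM in the wild-type mice and at 949.1, 789.0 and 809.4 CPM in the double mutant mice. Double mutant mouse 1 had the highest value and wild-type mouse 1 the lowest, and the remaining 4 mice lay between 789.0 and 857.2 CPM. The means of 801.7 ± 78.0 and 849.2 ± 87.1 CPM (SD, n = 3 mice each) differed by 0.08 ± 0.13 on the log2 scale (± standard error), which did not pass edgeR's test (adjusted p = 0.643). The 95% interval ran from 86.6 to 130% of the wild-type level, so a loss of *Cdh1* transcript below 86.6% lies outside it.

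*Cdh17* (ENSMUSG00000028217, chr4:11685294-11745042, plus strand) encodes LI-cadherin, a cadherin with a short cytoplasmic tail that adheres without catenins. It had 2308, 2379 and 2361 CPM in the wild-type mice, a narrower wild-type range than that of any other of the 8 genes relative to its mean, and 1985, 1603 and 1752 CPM in the double mutant mice. The highest double mutant mouse was below the lowest wild-type mouse. The mean was 2349 ± 37.2 CPM in wild-type mice and fell to 1780 ± 193 CPM, or 75.8% of wild type (95% interval 62.5 to 91.8%). This is -0.40 ± 0.12 on the log2 scale (± standard error), with an adjusted p of 0.0313 in edgeR. This call depended on single mice. It held without wild-type mouse 1 (-0.41 on the log2 scale, edgeR adjusted p = 0.0337) and without double mutant mouse 1, and it was lost without wild-type mouse 2 (adjusted p = 0.0797), wild-type mouse 3 (0.0732), double mutant mouse 2 (0.108) or double mutant mouse 3 (0.107).

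*Epcam* (ENSMUSG00000045394, chr17:88035319-88050446, plus strand) encodes the epithelial cell adhesion molecule, a membrane glycoprotein outside the cadherin family. The wild-type mice had 1696, 1709 and 1940 CPM and the double mutant mice 1761, 1897 and 1813 CPM. All 3 double mutant values fell inside the wild-type range. The difference of 0.03 ± 0.11 on the log2 scale did not pass edgeR's test (adjusted p = 0.843), and the 95% interval spanned 85.4 to 123% of wild type. Without wild-type mouse 1 the sign turned, with a value of -0.0012.

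*Ctnnb1* (ENSMUSG00000006932, chr9:120838334-120869625, plus strand) encodes β-catenin and is the gene engineered on 1 allele. Its total transcript level was 884.4, 989.9 and 920.9 CPM in the wild-type mice and 915.5, 757.1 and 850.9 CPM in the double mutant mice. Double mutant mouse 1 lay within the wild-type range, and double mutant mice 2 and 3 lay below it. The log2 fold change was -0.15 (95% interval -0.42 to 0.12, adjusted p = 0.359, edgeR), and with library size alone it was 0.05. The gene *Ulk4* on the opposite strand overlaps its exons but had at most 9 counts in any library.

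*Jup* (ENSMUSG00000001552, chr11:100230272-100259077, minus strand) encodes plakoglobin, also called γ-catenin, which takes the place of β-catenin on cadherins and also serves in desmosomes. It was counted at 340.2, 399.9 and 405.0 CPM in the wild-type mice and at 287.2, 290.2 and 269.1 CPM in the double mutant mice. The double mutant mice lay close together, all below the lowest wild-type mouse, which was wild-type mouse 1. The wild-type mean of 381.7 ± 36.0 CPM fell to 282.2 ± 11.4 CPM, or 73.9% of wild type (95% interval 61.9 to 88.2%), by -0.44 ± 0.11 on the log2 scale (± standard error) with an adjusted p of 0.0163 in edgeR. Without wild-type mouse 1 the log2 fold change was -0.51 (adjusted p = 0.00615, edgeR). The call was lost without wild-type mouse 2 (adjusted p = 0.0578), wild-type mouse 3 (0.0561) or double mutant mouse 3 (0.0704).

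*Ctnna1* (ENSMUSG00000037815, chr18:35278542-35414427, plus strand) encodes αE-catenin, which joins the cadherin-bound β-catenin or plakoglobin to actin. It had 727.7, 767.8 and 755.0 CPM in the wild-type mice and 558.4, 506.8 and 541.5 CPM in the double mutant mice. The lowest wild-type and the highest double mutant mouse were farther apart than the mice of either group were from each other. The wild-type mean of 750.2 ± 20.5 CPM fell to 535.6 ± 26.3 CPM, or 71.4% of wild type (95% interval 60.7 to 84.0%), a change of -0.49 ± 0.10 on the log2 scale with an adjusted p of 0.00715 in edgeR. Whichever of the 6 mice was left out, *Ctnna1* kept its call, at -0.51 to -0.45 on the log2 scale. Even so, 53.2% of all tested genes had a smaller absolute log2 fold change than *Ctnna1*.

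*Ctnnd1* (ENSMUSG00000034101, chr2:84440228-84490922, minus strand) encodes p120-catenin, which binds the tail of cadherins next to the membrane and slows their endocytosis. Values of 528.0, 682.1 and 605.6 CPM in the wild-type mice and 641.6, 516.0 and 560.2 CPM in the double mutant mice overlapped. The log2 fold change was -0.08 (95% interval -0.39 to 0.23, adjusted p = 0.679, edgeR). The sign was positive without wild-type mouse 2 (0.01) and with library size alone (0.11).

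*Vcl* (ENSMUSG00000021823, chr14:21748655-21852895, plus strand) encodes vinculin, which binds stretched α-catenin and talin and links them to actin. Its levels were 48.65, 53.58 and 35.13 CPM in the wild-type and 57.13, 37.61 and 43.57 CPM in the double mutant mice. The group means of 45.8 ± 9.56 and 46.1 ± 10.0 CPM differed by less than the spread between mice. The log2 fold change was 0.01 with a 95% interval from 73.3 to 138% of wild type (adjusted p = 0.973, edgeR), the widest among the 8 genes, and its sign turned under several settings. The exons of *Vcl* overlap those of *Ap3m1* on the opposite strand, which had up to 1433 counts in a library. The strand setting of the counting is not given in the sources used here, so the level of *Vcl* is uncertain.

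**Figure D2:**
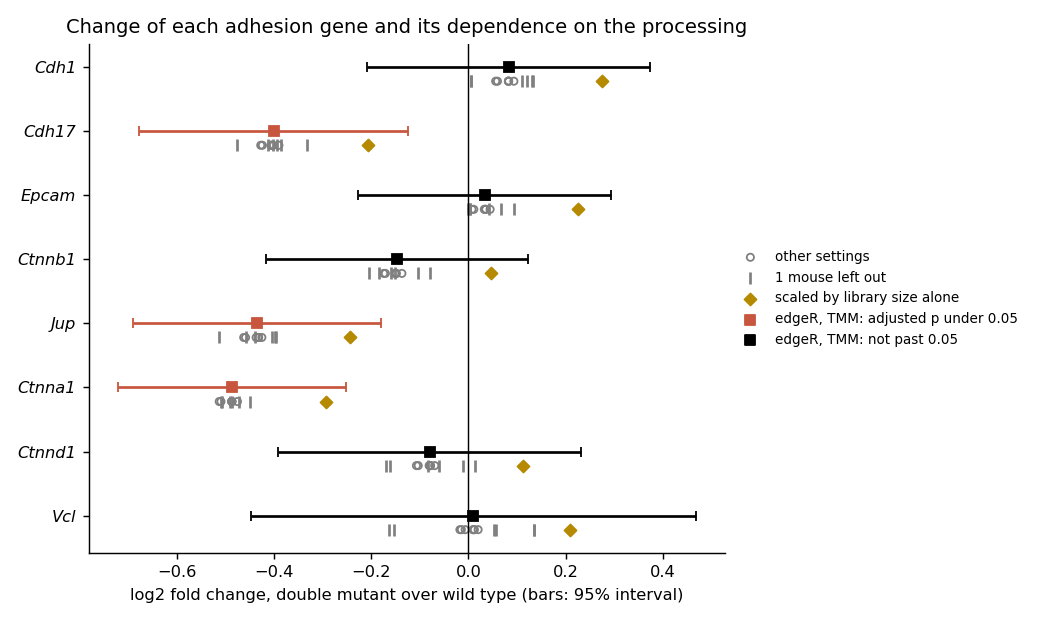
Log2 fold change of double mutant over wild-type villi (horizontal axis) for the 8 adhesion genes: squares with 95% intervals are edgeR with TMM scaling, ticks leave out 1 mouse, diamonds are library size alone and circles are other settings. The intervals of *Cdh17*, *Jup* and *Ctnna1* lie below 0, and with library size alone all 8 values shift to the right, so that *Ctnnb1* and *Ctnnd1* turn positive.

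The normalisation set the level against which these differences are read. With library size in place of TMM, the median log2 fold change over all genes moved from 0.02 to 0.22, and the share of called genes that were higher moved from 53.7 to 72.4%. On that scale the log2 fold change was -0.29 for *Ctnna1* (adjusted p = 0.0559), -0.24 for *Jup* (0.135) and -0.21 for *Cdh17* (0.219), none past the threshold in edgeR. Relative to the median of all genes, these values were -0.51 for *Ctnna1*, -0.46 for *Jup* and -0.42 for *Cdh17*, and for the other 5 genes they lay between -0.17 (*Ctnnb1*) and 0.06 (*Cdh1*). Without wild-type mouse 1, the library that stood apart, all 3 calls held (*Ctnna1* at -0.51, edgeR adjusted p = 0.0072), and the log2 fold changes of the uncalled genes were 0.0047 for *Cdh1*, -0.18 for *Ctnnb1*, -0.17 for *Ctnnd1* and 0.06 for *Vcl*.

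Levels of different genes were compared per kilobase of the union of their exons, a length that includes every annotated transcript. On this scale, *Epcam* was the most abundant in all 6 mice, with 873 ± 67.4 CPM per kb in the wild-type mice and 894 ± 33.6 in the double mutant mice. *Cdh17* came next, with 525 ± 8.32 and 398 ± 43.0 CPM per kb. In wild-type villi, *Ctnna1* (203 ± 5.53 CPM per kb) was above *Ctnnb1* (183 ± 10.5) and *Cdh1* (175 ± 17.1) in every mouse. The last 2 genes overlapped in their ranges and changed places between mice. In double mutant villi the order was *Cdh1* (186 ± 19.1 CPM per kb), *Ctnnb1* (165 ± 15.6) and *Ctnna1* (145 ± 7.10) in all 3 mice, although the ranges of neighbouring genes overlapped. Thus, per kb, *Ctnna1* took rank 3 of the 8 in each wild-type mouse and rank 5 in each double mutant mouse. These ranks depend on the lengths used. In CPM without that division, the wild-type mean of *Ctnna1* (750.2) lay below those of *Cdh1* (801.7) and *Ctnnb1* (931.7). *Ctnnd1* (82.7 ± 10.5 and 78.2 ± 8.70 CPM per kb), *Jup* (59.3 ± 5.6 and 43.8 ± 1.77) and *Vcl* (8.76 ± 1.83 and 8.82 ± 1.91) held ranks 6, 7 and 8 in every mouse, with no overlap between them. Among all tested genes, the wild-type level per kb of *Epcam* exceeded 99.5%, that of *Cdh17* 99.1%, that of *Cdh1* 97.3% and that of *Vcl* 62.5%. The other catenins lay between 91.6% for *Jup* and 97.7% for *Ctnna1*.

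Ratios of raw counts between adhesion genes of the same mouse do not depend on the normalisation. The ratio of *Ctnna1* to *Cdh1* was 1.02, 0.896 and 0.904 in the wild-type mice and 0.588, 0.642 and 0.669 in the double mutant mice. Each double mutant mouse thus had fewer α-catenin reads per E-cadherin read than any wild-type mouse, by 0.57 on the log2 scale between the group means. The ratio of *Ctnnb1* to *Cdh1* was 1.24, 1.15 and 1.10 in the wild-type mice and 0.965, 0.959 and 1.05 in the double mutant mice. That of *Ctnnd1* to *Cdh1* also separated the groups, at 0.754 ± 0.0371 and 0.674 ± 0.0191. All 3 catenins therefore had lower counts per *Cdh1* count in every double mutant mouse, whereas the CPM of *Ctnnb1* and of *Ctnnd1* overlapped between the groups. The ratio of *Cdh17* to *Cdh1* was 3.24, 2.78 and 2.83 in the wild-type mice and 2.09, 2.03 and 2.17 in the double mutant mice. Of the pair that competes for the cadherin tail, the *Jup* to *Ctnnb1* ratio was 0.385, 0.404 and 0.440 in wild-type and 0.314, 0.383 and 0.316 in double mutant mice, a separation that rested on the narrow gap between 0.385 and 0.383. *Vcl* per *Ctnna1* was higher, at 0.0611 ± 0.0127 and 0.0857 ± 0.0148, and the nearest mice of the groups had 0.0698 and 0.0742. The level of *Vcl* itself is uncertain, as given above. *Epcam* per *Cdh1* overlapped (2.23 ± 0.208 and 2.17 ± 0.282, exact permutation p = 0.7). For the 6 ratios without overlap, the exact two-sided permutation test gave p = 0.1, the smallest possible with 3 mice against 3, and 0.117 after adjustment over the 7 ratios, so none could pass 0.05. Without wild-type mouse 1, these 6 ratios kept their direction, from -0.51 (*Ctnna1* to *Cdh1*) to 0.57 (*Vcl* to *Ctnna1*) on the log2 scale. Several of the ratios share *Cdh1* and are not independent. How often the ratios of other gene pairs separate the groups was not tallied. Of all single genes tested, 52.4% had no overlap between the groups.

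**Figure D3:**
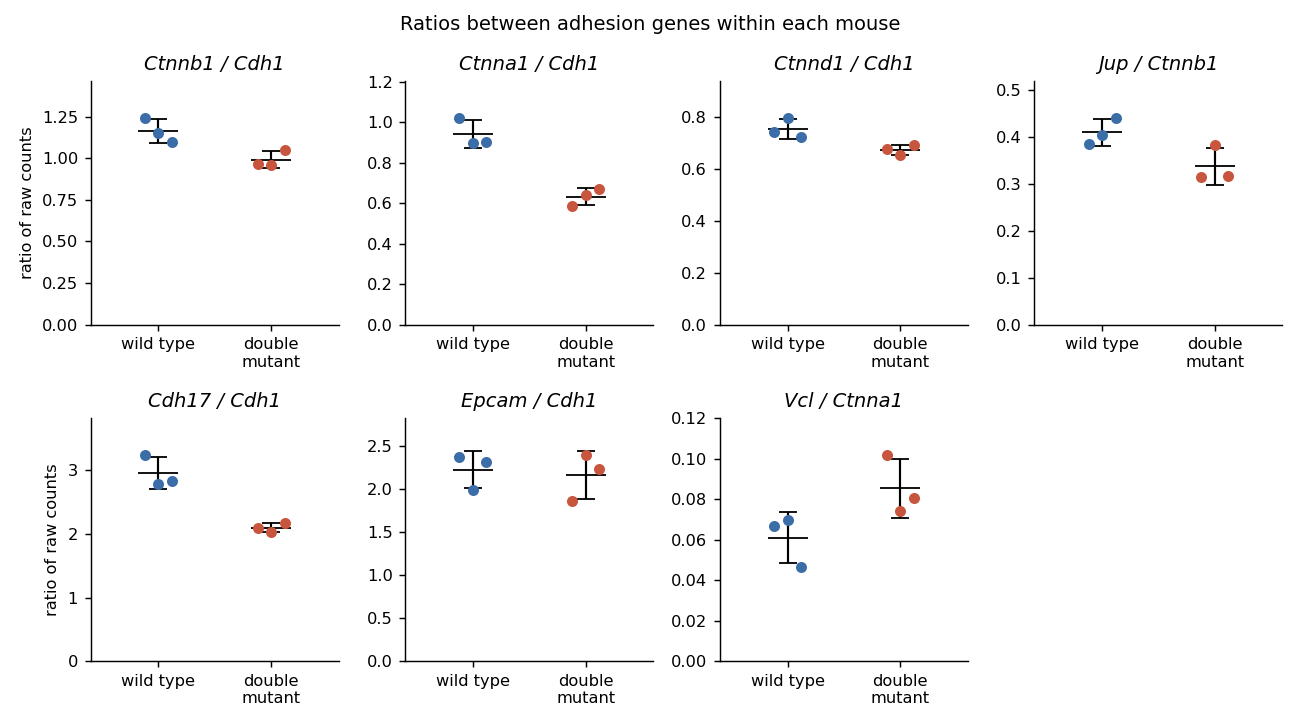
Ratio of raw counts of 2 adhesion genes within each mouse (vertical axis from 0) in 3 wild-type (blue) and 3 double mutant (red) mice, with the mean and SD. The ratios of *Ctnnb1*, *Ctnna1*, *Ctnnd1* and *Cdh17* to *Cdh1* and of *Jup* to *Ctnnb1* are lower, and that of *Vcl* to *Ctnna1* higher, in each double mutant mouse, and *Epcam* to *Cdh1* overlaps.

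Around these 8 genes, 8 lists of related genes were examined, with 151 genes listed, 132 with a row in the table and 103 tested. With TMM, 14 of these 103 were called higher and 30 called lower, and 25 were higher and 18 lower with library size alone. This direction thus depended on the scaling, and it is read against the background of 19.7% higher and 17% lower.

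Few other cadherins were counted at levels that allowed a test. Of 23 with a row, 8 were tested, 1 was higher, 3 were lower and their median log2 fold change was 0.08. *Cdhr2*, a protocadherin that ties the tips of microvilli together, fell to 1635 ± 190 CPM from a wild-type level of 3377 ± 66.6 CPM (-1.05 on the log2 scale, edgeR adjusted p = 0.000611). *Pcdh1*, a protocadherin of epithelia, fell to 163 ± 16.1 CPM from a wild-type level of 260 ± 28.2 CPM (-0.67 on the log2 scale, edgeR adjusted p = 0.00415). *Celsr1*, a planar polarity cadherin, rose to 9.03 ± 1.64 CPM from a wild-type level of 2.73 ± 1.62 CPM (1.74 on the log2 scale, edgeR adjusted p = 0.00964). *Cdhr5*, the partner of *Cdhr2*, was also called (-0.37 on the log2 scale, edgeR adjusted p = 0.0313) but lost its call in every fit that left out a mouse other than wild-type mouse 1, where the adjusted p ran from 0.0701 to 0.109. It also lost the call with library size alone (-0.18, adjusted p = 0.25, edgeR) and with no filter on low counts (adjusted p = 0.0589). N-cadherin (*Cdh2*) had 0 counts in each wild-type mouse and 1, 1 and 2 counts in the double mutant mice, which is no more than the 3 counts set as the floor. In all, 14 of the 23 other cadherins had at most 3 counts in each library of a group, and 11 of them in all 6 libraries. These were *Cdh2*, *Cdh10*, *Cdh11*, *Cdh13*, *Cdh16*, *Cdh20*, *Cdh22*, *Cdh26*, *Cdhr1*, *Cdhr3*, *Pcdh9*, *Pcdh18*, *Pcdh20* and *Fat4*. At this depth, *Cdh1* and *Cdh17* had between 15757 and 55404 counts per mouse.

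Among the other catenins and armadillo proteins, 3 of 5 were tested. *Ctnnal1*, which encodes the α-catenin relative α-catulin, rose to 12.3 ± 1.97 CPM from a wild-type level of 3.04 ± 0.749 CPM (2.02 on the log2 scale, edgeR adjusted p = 0.000523), while *Pkp4*, a p120-catenin relative, fell to 89.4 ± 1.82 CPM from a wild-type level of 128 ± 10.6 CPM (-0.52 on the log2 scale, edgeR adjusted p = 0.00598). *Arvcf* did not pass the test (0.54 on the log2 scale, edgeR adjusted p = 0.203).

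The linkers between the junction and actin had 17 tested genes, with 2 higher and 8 lower, a median log2 fold change of -0.32 and 58.8% called. *Lmo7*, which binds α-actinin and afadin, fell to 273 ± 27.3 CPM from a wild-type level of 449 ± 51.6 CPM (-0.72 on the log2 scale, edgeR adjusted p = 0.0036). *Camsap3*, which anchors microtubules at p120-catenin through *Plekha7*, changed by -0.68 (adjusted p = 0.0066), and *Ablim1*, an actin-binding LIM protein, by -0.61 (adjusted p = 0.00326). *Actn1*, an α-actinin, rose to 63.3 ± 4.88 CPM from a wild-type level of 13.8 ± 6.87 CPM (2.21 on the log2 scale, edgeR adjusted p = 0.00632), with 5.87, 18.3 and 17.2 CPM in the wild-type mice and none under 58.8 CPM in the double mutant mice. *Tln2*, a talin, was higher by 1.37 (adjusted p = 0.0301) at levels of 0.583 to 3.29 CPM, and its adjusted p reached 0.0952 when single mice were left out (without wild-type mouse 3 or any of the double mutant mice).

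Of 8 tested nectins and junctional immunoglobulin proteins, 0 were higher and 3 lower, with a median log2 fold change of -0.25. *Ceacam1*, a homophilic adhesion molecule of the apical surface whose reads may be shared with its close paralog *Ceacam2*, fell to 532 ± 37.6 CPM from a wild-type level of 854 ± 191 CPM (-0.68 on the log2 scale, edgeR adjusted p = 0.0148). Its adjusted p was 0.0532 without wild-type mouse 2, 0.0507 without double mutant mouse 2, 0.0595 without double mutant mouse 3 and 0.058 with library size alone. *F11r*, which encodes the junctional adhesion molecule JAM-A, was lower by 0.37 and *Gpa33* by 0.33 on the log2 scale (adjusted p = 0.0308 and 0.0335, edgeR). The call for *Gpa33* was lost whichever mouse was left out, and that for *F11r* without wild-type mice 2 or 3 or double mutant mice 1 or 2 (adjusted p from 0.0866 to 0.0951). With library size alone neither was called, at -0.18 for *F11r* (adjusted p = 0.248, edgeR) and -0.14 for *Gpa33* (adjusted p = 0.308), and with no filter on low counts *Gpa33* was not called (adjusted p = 0.0743). The nectins *Pvrl2* and *Pvrl3* did not pass the test, with log2 fold changes of -0.04 and 0.03.

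The desmosome, where plakoglobin binds desmosomal cadherins, had 9 tested genes with 2 higher and 1 lower. Its cadherins *Dsg2* (-0.05 on the log2 scale, edgeR adjusted p = 0.840) and *Dsc2* (-0.00, adjusted p = 0.986) did not pass the test, nor did the plaque protein *Dsp* (0.21, adjusted p = 0.253, edgeR). *Evpl*, which encodes the plakin envoplakin, fell to 42.4 ± 11.3 CPM from a wild-type level of 109 ± 17.4 CPM (-1.37 on the log2 scale, edgeR adjusted p = 0.00203). The plaque protein *Pkp2* rose to 69.2 ± 5.59 CPM from a wild-type level of 43.9 ± 3.64 CPM (0.66 on the log2 scale, edgeR adjusted p = 0.00347). *Ppl* rose to 13.5 ± 2.06 CPM from a wild-type level of 7.05 ± 2.87 CPM (0.935 on the log2 scale, edgeR adjusted p = 0.0445).

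Partners and proteases of EpCAM had 11 tested genes, of which 4 were higher and 4 lower (72.7% called), with a median log2 fold change of 0.07. *Spint1*, an inhibitor of the membrane protease matriptase, fell to 379 ± 30.6 CPM from a wild-type level of 570 ± 2.40 CPM (-0.59 on the log2 scale, edgeR adjusted p = 0.00365), and *Fhl2*, a LIM protein that carries the cleaved EpCAM tail together with β-catenin, to 30.3 ± 6.51 CPM from 68.9 ± 17.1 CPM (-1.19 on the log2 scale, edgeR adjusted p = 0.00347). *Cd44*, a hyaluronan receptor that binds EpCAM complexes and is a Wnt target, rose to 14.2 ± 1.13 CPM from 3.49 ± 0.807 CPM (2.03 on the log2 scale, edgeR adjusted p = 0.000353). *Cldn7*, the claudin that binds EpCAM directly, was lower by 0.41 (adjusted p = 0.0356, edgeR), a call that held in 1 of the 6 fits with a mouse left out, that without wild-type mouse 1, and otherwise had adjusted p-values from 0.0652 to 0.106. With library size alone *Cldn7* was not called (-0.22, adjusted p = 0.21, edgeR). *Epcam* itself, as given above, lay inside the wild-type range in every double mutant mouse.

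Genes for the turnover and phosphorylation of the cadherin complex numbered 29 tested, with 1 higher and 7 lower (27.6% called) and a median log2 fold change of -0.26. *Arf6*, a GTPase of cadherin endocytosis, fell to 215 ± 7.13 CPM from a wild-type level of 393 ± 28.2 CPM (-0.87 on the log2 scale, edgeR adjusted p = 0.000609), and *Numb*, an endocytic adaptor, to 106 ± 2.51 CPM from 191 ± 5.62 CPM (-0.85 on the log2 scale, edgeR adjusted p = 0.00045). *Nedd4*, a ubiquitin ligase, rose to 86.2 ± 9.36 CPM from a wild-type level of 30.5 ± 4.75 CPM (1.5 on the log2 scale, edgeR adjusted p = 0.000258). These 3 calls held whichever mouse was left out. *Ptprm* had the largest fall among the called genes of this list (-2.22 on the log2 scale, edgeR adjusted p = 0.0237). That fall rested on few counts, 20, 10 and 39 in the wild-type and 7, 4 and 4 in the double mutant mice. The kinase *Src*, named after its value was seen, was lower by 0.82 on the log2 scale (adjusted p = 0.000664, edgeR).

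Among transcription regulators of E-cadherin, 18 of 22 genes with a row were tested, 3 higher and 3 lower, with a median log2 fold change of 0.09. *Klf4*, a factor of differentiated villus cells that activates the *Cdh1* promoter, fell to 104 ± 13.5 CPM from a wild-type level of 597 ± 17.4 CPM (-2.53 on the log2 scale, edgeR adjusted p = 1.6e-05). *Esrp2*, a splicing regulator of epithelia, rose to 39.8 ± 1.31 CPM from a wild-type level of 23.7 ± 1.51 CPM (0.75 on the log2 scale, edgeR adjusted p = 0.00149). *Grhl2*, an activator of *Cdh1*, was higher by 0.72 (adjusted p = 0.019, edgeR), with adjusted p-values of 0.0574 without double mutant mouse 1 and 0.0562 without double mutant mouse 2. *Elf3* was also called higher (0.61, edgeR adjusted p = 0.0245), but not when any double mutant mouse was left out (0.0584 to 0.0788). *Hnf4a* (-0.39, edgeR adjusted p = 0.0256) and *Ovol1* (-0.36, 0.0468) were called lower. With library size alone *Hnf4a* was not called (-0.19, edgeR adjusted p = 0.193). The zinc finger repressors of *Cdh1* from the Snai and Zeb families with a row had 12 counts or fewer in every mouse. *Zeb2* had 0, 2 and 0 counts in the wild-type and 2, 0 and 7 in the double mutant mice, *Snai1* 3, 0 and 4 against 4, 5 and 4, and *Zeb1* 10, 12 and 9 against 7, 4 and 6. None of these 3 genes passed the filter. Elsewhere on this list, *Tcf3* had 36.8 to 40.8 CPM in the wild-type and 43.1 to 56.3 CPM in the double mutant mice. Its rise of 0.37 on the log2 scale did not pass the test (edgeR adjusted p = 0.0541). *Zbtb33*, with 277 to 496 counts per mouse, did not pass it either (-0.29, edgeR adjusted p = 0.26). *Cdh1* itself did not pass the test in these libraries.

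**Figure D4:**
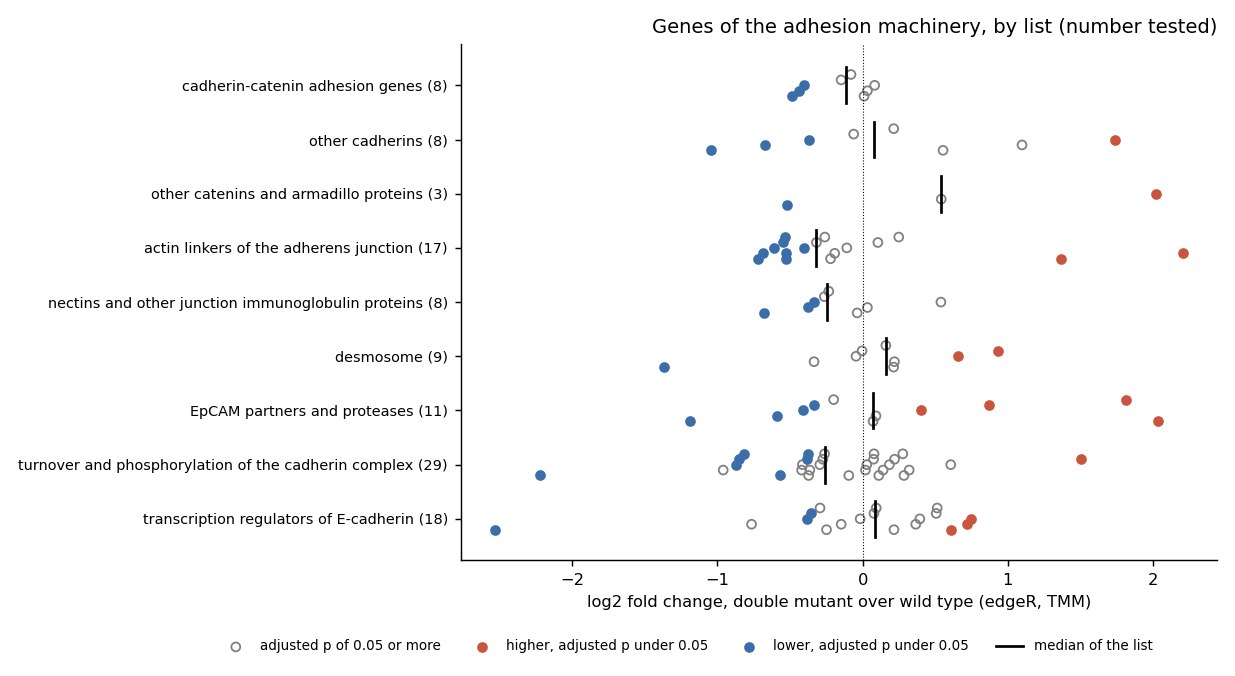
Log2 fold change (horizontal axis, double mutant over wild type, edgeR with TMM) of each tested gene of the 8 adhesion genes and of 8 lists of related genes; filled points passed an adjusted p of 0.05 (red higher, blue lower), open points did not, and the bar is the list's median. The 8 adhesion genes lie between -0.49 and 0.08, while the related lists hold genes beyond 1 in either direction, and the split of 14 higher and 30 lower becomes 25 and 18 with library size alone.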

How the data were processed

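RNA from duodenal villus epithelium of 3 wild-type and 3 double mutant mice was sequenced after polyA enrichment. The paper's methods and the labels differ in the EDTA used for isolation. The authors aligned the reads to mm9 with HISAT2, assigned them to genes with featureCounts and deposited raw counts, not normalized and not pooled; the strand setting and the handling of multi-mapping reads are not given in the sources used here. Of 20073 Ensembl identifiers, 20032 were found in the mm9 annotation.

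From these counts (19678507 to 26337318 per library), genes were kept by filterByExpr, scaled by TMM and tested with edgeR 4.0.16 in R 4.3.3 (robust glmQLFit, glmQLFTest, Benjamini-Hochberg over 13346 genes, threshold 0.05). Standard errors are the log2 fold change over the square root of F. Per-kb levels use the union of annotated exons. The paper's methods used DESeq2 with a log2 threshold of 2; DESeq2 1.42.0 was an alternative, as were limma 3.58.1 (voom), RLE factors, library size alone, other filters, a replicate block, sex and each mouse left out. The code was tested on simulated data. Ratios and marker shares were compared by exact permutation tests. Conditions and sexes came from the labels, and tamoxifen, alleles and controls from the paper's methods. The 8 genes, the related lists and the markers were chosen with earlier results of these data known. The named genes were the 8 members, *Smad4* and, of each list, up to 3 called genes with the largest rise and 3 with the largest fall, plus cadherins and *Cdh1* regulators at or under 3 counts; not all are described. *Src*, *Arvcf*, *Pvrl2*, *Pvrl3*, *Dsg2*, *Dsc2*, *Dsp*, *Snai1*, *Zeb1*, *Tcf3*, *Zbtb33*, *Actn4*, *Tln1* and *Pkp3* are named outside this rule and were chosen after their values were seen. Listed genes without a row (such as *Cdh3*, *Cdh5*, *Snai2* and *Twist1*) were not analysed here. Sequences were read from the mm9 genome.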

Additional observations from a re-analysis of the deposited data

How the results depend on the processing

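The number of adhesion genes called, 3 in edgeR, was 3 with DESeq2, limma-voom, RLE factors, both other filters and sex as a covariate, 0 with library size alone, 0 at an absolute log2 fold change of at least 1 or 2, and 1 to 3 with each mouse left out (1, *Ctnna1*, without wild-type mouse 2 or 3 or double mutant mouse 3). Whether the replicate numbers mark pairs is not given in the sources used here, and mouse 1 was the male in both groups. Deviations from the group means correlated at 0.0224, -0.109 and 0.0123 between same-numbered mice, which cannot settle this. With the replicate block 1 gene was called, *Ctnna1*. The log2 fold change was then -0.41 for *Cdh17* (adjusted p = 0.0832, edgeR) and -0.43 for *Jup* (0.053). *F11r* (0.0592), *Cldn7* (0.0569), *Cdhr5* (0.0956) and *Gpa33* (0.102) also lost their call. In that fit 32 related genes (13 higher, 19 lower) and 3834 genes in all, instead of 4905, were called. With library size alone the log2 fold changes were -0.21 for *Cdh17*, -0.29 for *Ctnna1* and -0.24 for *Jup*, below the threshold, and 0.046 for *Ctnnb1* and 0.11 for *Ctnnd1*, with the sign turned. Leaving out a mouse gave -0.48 to -0.33 for *Cdh17*, -0.51 to -0.40 for *Jup*, -0.51 to -0.45 for *Ctnna1*, -0.17 to 0.01 for *Ctnnd1* (0.01256 without wild-type mouse 2), -0.0012 to 0.0945 for *Epcam* and -0.16 to 0.14 for *Vcl*, which turned negative without wild-type mouse 3 (-0.15) or double mutant mouse 1 (-0.16). *Vcl* was also negative with DESeq2 (-0.0146), RLE factors (-0.0177) and sex (-0.0069). The log2 difference in the ratio of *Epcam* to *Cdh1*, -0.05, ran from -0.127 to 0.0602 with a mouse left out, and was positive without wild-type mouse 1 (0.0010) or double mutant mouse 1 (0.0602). Of the 103 related genes, 44 were called in edgeR and 27 (without double mutant mouse 3) to 48 (without wild-type mouse 1) with a mouse left out, 28 without double mutant mouse 2. For the related genes chosen for naming and *Smad4*, 251 values kept and 21 lost their call under the other settings, 149 kept and 55 lost it with a mouse left out, and 0 changed sign. Apart from fits with fewer mice, the cause of these shifts was not tested. With 3 mice per group, no exact permutation test of a ratio can go below 0.1, and levels under 0.125 CPM are beyond this depth.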

Other observations

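In 4 pairs of related genes, chosen after their values were seen, the less abundant gene took a larger share of the pair's counts in every double mutant mouse than in any wild-type mouse. The choice fixed that direction, so it is given as a description with no test, and other pairs were not tallied. *Ctnnal1* supplied 0.342, 0.353 and 0.513% of the counts of *Ctnnal1* and *Ctnna1* together in the wild-type mice and 2.02, 2.78 and 1.96% in the double mutant mice. *Actn1* supplied 0.453, 1.24 and 1.25% of the α-actinin counts (with *Actn4*) in the wild-type mice and 5.91, 6.72 and 6.31% in the double mutant mice. For the talins, the share of *Tln2* averaged 0.622 ± 0.237% (SD) over the wild-type mice and 2.34 ± 0.324% over the double mutant mice, and for the plakophilins the share of *Pkp2* among *Pkp2* and *Pkp3* was 20.7 ± 1.05% and 34.4 ± 4.38%. The more abundant gene still supplied the larger part of each pair in all 6 mice. A ratio within a pair does not say which gene of it moved, so the single-gene fits are given. The less abundant gene of each pair was called higher and *Ctnna1* lower, as given above. *Actn4* (-0.55 on the log2 scale, edgeR adjusted p = 0.00517) and *Tln1* (-0.53, adjusted p = 0.0122) were also lower. *Pkp3* did not pass the test (-0.33, edgeR adjusted p = 0.055).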
